A study of Homo sapiens with 192 samples.

Results

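The 7 genes described here belong to the machinery that senses sterols and sets sterol uptake. The genes were followed across colorectal cancer (CRC) cell lines grown as flat layers (2D) or in 3D culture. They were chosen by name, with no measured value in the rule: SREBF1, SREBF2, SCAP, INSIG1, INSIG2, STARD4 and MYLIP, which are 7 of the 58243 Ensembl identifiers counted. Earlier results of these data were known when they were chosen. Counts of members set beside shares of all genes are therefore a description. The lines were HT29 and LS513, which are microsatellite stable, and HCT116 and LS174T, which are microsatellite instable. From each line, 3 libraries of polyA-selected RNA were made from 2D cultures and 3 from 3D cultures, 24 libraries in 8 groups, with no treatment named in the labels. HCT116 was kept in McCoy medium and the other lines in DMEM. Line and medium therefore cannot be told apart where HCT116 is compared with another line. The study describes low-attachment plates for its spheroid growth assay, and does not say how the 3D cultures used for RNA were formed. The labels do not say that the libraries of a group came from separate cultures, so p-values measure the spread between these libraries only.

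SREBF1 and SREBF2 encode the sterol regulatory element binding proteins SREBP-1 and SREBP-2, transcription factors that are made as precursors in the membrane of the endoplasmic reticulum. SCAP carries the precursors to the Golgi apparatus, where proteases release the active part, and INSIG1 and INSIG2 hold SCAP back when sterols are plentiful. Active SREBP-2 drives genes of cholesterol synthesis and uptake, SREBP-1 mainly drives fatty acid synthesis, and INSIG1 is itself a target, which closes a feedback loop. STARD4 moves cholesterol between membranes, and MYLIP (also called IDOL) is a ubiquitin ligase that lowers sterol uptake and is induced by the oxysterol receptors LXR.

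The bases just upstream of the start sites of 4 members are shown first, as a description. The following 250-base stretches end directly before the RefSeq start of the gene (GRCh38.p14, read 5′ to 3′ on the strand of the gene), and were chosen because they belong to the 4 members whose levels rose most in LS513. Capitals mark matches on either strand to the sterol regulatory element TCACNCCAC, to the CCAAT box and to the E-box CACGTG.
SREBF2, chr22:41832855-41833104, plus strand: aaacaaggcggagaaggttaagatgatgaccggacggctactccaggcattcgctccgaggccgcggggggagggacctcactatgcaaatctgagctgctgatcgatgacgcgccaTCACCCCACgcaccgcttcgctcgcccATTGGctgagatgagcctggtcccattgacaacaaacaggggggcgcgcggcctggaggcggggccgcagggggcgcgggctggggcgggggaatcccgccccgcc
INSIG1, chr7:155297628-155297877, plus strand: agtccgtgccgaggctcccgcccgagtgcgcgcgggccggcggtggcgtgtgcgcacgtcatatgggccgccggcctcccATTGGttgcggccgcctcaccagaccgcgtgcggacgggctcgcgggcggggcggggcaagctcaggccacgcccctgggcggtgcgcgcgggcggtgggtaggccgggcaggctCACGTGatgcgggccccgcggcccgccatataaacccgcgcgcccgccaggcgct
INSIG2, chr2:118088221-118088470, plus strand: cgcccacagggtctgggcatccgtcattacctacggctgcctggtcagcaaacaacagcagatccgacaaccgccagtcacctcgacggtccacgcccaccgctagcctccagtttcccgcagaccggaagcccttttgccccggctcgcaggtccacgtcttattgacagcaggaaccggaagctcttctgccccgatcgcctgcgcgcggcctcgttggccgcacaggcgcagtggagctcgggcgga
STARD4, chr5:111512536-111512785, minus strand: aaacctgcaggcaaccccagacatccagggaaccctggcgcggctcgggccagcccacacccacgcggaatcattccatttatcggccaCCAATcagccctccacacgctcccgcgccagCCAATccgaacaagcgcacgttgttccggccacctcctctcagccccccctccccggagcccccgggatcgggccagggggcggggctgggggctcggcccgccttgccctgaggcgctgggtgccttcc

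SREBF2 held the element TCACCCCAC at positions -133 to -125 from its start and a reversed CCAAT box at -106 to -102. The stretch of INSIG1 held a reversed CCAAT box and an E-box, STARD4 held 2 CCAAT boxes, and INSIG2 held none of the 3 motifs, also at its second listed start. Of the members not printed, MYLIP held 2 reversed CCAAT boxes, SCAP held an E-box, and SREBF1 held none at its only listed start. Any start of SREBF1 that was not listed was not scanned. Among all 35116 RefSeq stretches of this length the sterol element was found in 0.883%, the CCAAT box in 32.0% and the E-box in 6.35%. Among the 7 members they were found in 1, 4 and 2 genes, and among the 15 cholesterol synthesis genes with a listed start the CCAAT box was found in 13, the E-box in 1 and the sterol element in 0. A gene counted if any of its listed starts matched, while the shares are per stretch, so the measures are not alike. These are matches of letters, and no binding was measured. Whether they bear on the levels in 2D or 3D was not tested.

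The summed library totals lay between 18723942 and 34277421 counts, and levels are given in CPM, in which each count is divided by its library's total and by the TMM factor that evens out library composition. All 7 members passed the filter on low counts, which kept 19387 genes, and the smallest count of any member in any library was 161, for MYLIP. One library stood apart, the second of LS174T in 3D. It differed from the other 2 of its group by a median chi-square of 20.7 and 33.8 times the sampling level, against 2.05 to 14.7 for every other pair within a group. In HCT116, the first 3D library had 6.40% mitochondrial counts, against 1.66% and 2.45% in the others. Where a member's call in a line or between lines turned on 1 of these 2 libraries, the value without it is given. The epithelial markers EPCAM, CDH1, KRT8, KRT18, KRT20, CDX2 and VIL1 were over 3 counts in all libraries, while CDX1 and CDH17 were not in HCT116 and LGALS4 was not in HCT116 in 2D. The summed fibroblast markers reached at most 1.10 CPM outside HCT116, where COL1A1 and PDGFRB gave 10.2 to 22.1 CPM, and the summed endothelial markers reached at most 2.38 CPM. The sum of the 4 immune markers in HT29 was 5.09 to 7.43 CPM in 2D and 10.2 to 15.3 CPM in 3D, all but a trace of it CD14, and its part in the results of HT29 was not tested. PTPRC and CD3E were over 3 counts in all libraries of no group.

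In 3D growth the SREBF genes and both INSIG genes were higher on average over the 4 lines, with SCAP and MYLIP near their 2D level. Of the 7 members, 5 rose in the mean over the lines and none fell (edgeR quasi-likelihood test, adjusted p under 0.05), where 26.6% of all tested genes were higher and 23.9% lower. The median log2 fold change (3D over 2D) of the members in that mean was 0.64, against 0.04 over all tested genes. Line by line, 4 members rose in HT29, where 21.1% of all genes were higher and 19.6% lower. In LS513, 5 rose and MYLIP fell, beside 13.7% of genes higher and 9.9% lower. In HCT116 5 rose beside 16.8% higher and 12.3% lower, and in LS174T 4 rose beside 13.1% higher and 9.15% lower. On the log2 scale the members had a median change of 0.34 for HT29, 0.74 for LS513, 0.52 for HCT116 and 0.45 for LS174T. In bulk RNA, a change in the share of cells that use a gene and a change in RNA per cell cannot be told apart.

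**Figure D1:**
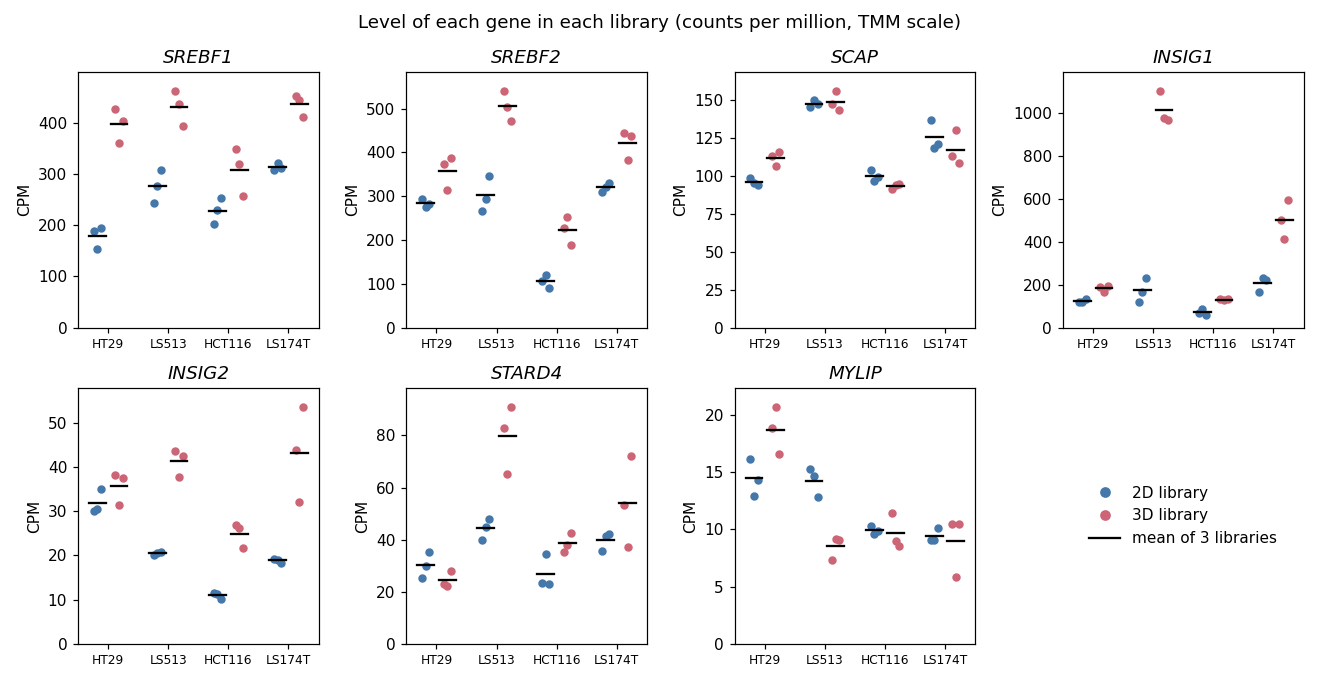
Level of each of the 7 genes in each library (CPM on the TMM scale, linear axis from 0), by line and growth condition. Points are libraries and black lines the means of 3. INSIG1 in LS513 sits between 970 and 1106 CPM in 3D and between 121 and 233 CPM in 2D, and SCAP stays between 91.5 and 156 CPM in all 24 libraries.

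SREBF1 (ENSG00000072310, chromosome 17, 17810399 to 17837002, GRCh38) was higher in 3D in every line, and most so in HT29. In HT29 its level was 189, 154 and 194 CPM in 2D and 427, 359 and 402 CPM in 3D. The highest 2D library thus lay well under the lowest 3D library, and the log2 fold change was 1.15 ± 0.12 (SE, n = 3 per group, adjusted p = 1.3e-07). Each SE of a fold change was derived from the F value of the model over all 24 libraries. It does not show the spread of the libraries of that line alone. LS513 had 243, 277 and 308 CPM in 2D against 462, 436 and 394 CPM in 3D, a change of 0.64 ± 0.12 (adjusted p = 0.00029). HCT116 had 202, 229 and 253 CPM against 349, 318 and 257 CPM, where the third 3D library was barely above the highest 2D library and the change was 0.43 ± 0.12 (adjusted p = 0.0069). Without the first 3D library of HCT116 this change was 0.32 (adjusted p = 0.073), and without the first 2D library it was 0.35 (adjusted p = 0.058). LS174T had 308, 320 and 312 CPM against 452, 444 and 410 CPM, with no overlap and a change of 0.47 ± 0.12 (adjusted p = 0.0058). SREBF1 shares 556 of its 8030 exonic bases (6.92%) with RAI1 on the opposite strand. The libraries were strand specific but the strand setting of the counting was not given in the sources used here, so a part of these reads could belong to RAI1. RAI1 itself changed by -0.08 in HT29 and by -0.21 to 0.04 in the other lines, with adjusted p of at least 0.34.

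SREBF2 (ENSG00000198911, chromosome 22, 41833079 to 41907308), the main driver of cholesterol synthesis genes, also rose in every line, and here the order of the lines was another. HCT116, the line with the least SREBF2, had 106, 120 and 91.4 CPM in 2D and 227, 252 and 188 CPM in 3D. All 3 libraries in 3D lay above all 3 in 2D, and the log2 fold change was 1.07 ± 0.12 (adjusted p = 4.9e-07). In LS513 the values were 266, 293 and 346 CPM against 541, 504 and 472 CPM, a change of 0.74 ± 0.12 (adjusted p = 5.7e-05). LS174T went from 311, 322 and 329 CPM to 444, 383 and 439 CPM, with a change of 0.40 ± 0.12 (adjusted p = 0.018). HT29 had 293, 275 and 282 CPM against 373, 313 and 388 CPM, a change of 0.34 ± 0.12 (adjusted p = 0.023). The groups did not overlap in any line, but the calls in HT29 and LS174T were near the threshold. Leaving out 1 of 3 HT29 libraries (the second of 2D, replicate 1 or 4 of 3D) gave adjusted p of 0.052 to 0.069, and leaving out 1 of 3 LS174T libraries (the first or second of 2D, the first of 3D) gave 0.050 to 0.064.

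The balance of the SREBF genes is given as the ratio of SREBF1 to SREBF2 in CPM per kilobase of exon. The length used was that of all annotated exons of a gene merged, 8030 bases for SREBF1 and 7557 for SREBF2. Whether a ratio lies above 1 depends on this choice, while its change within a line does not. In HT29 the ratio was 0.593 ± 0.062 (SD, n = 3) in 2D and 1.04 ± 0.059 in 3D, with no overlap. HCT116 was at 2.06 ± 0.47 in 2D and 1.31 ± 0.13 in 3D, the other way round, and the libraries again did not overlap. LS513 was at 0.862 ± 0.025 in 2D and 0.801 ± 0.014 in 3D, a small step in which the libraries did not overlap either. LS174T was at 0.921 ± 0.026 and 0.976 ± 0.107, with overlapping libraries. With this length, HCT116 was the line in which SREBF1 exceeded SREBF2 per kilobase in every library of both growth conditions. The ratios are a description and were not tested.

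**Figure D2:**
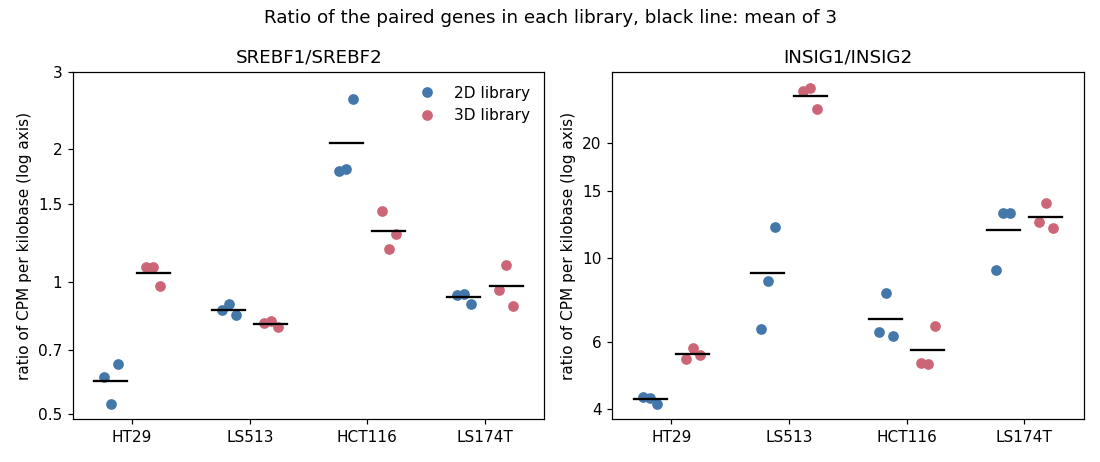
Ratio of SREBF1 to SREBF2 (left) and of INSIG1 to INSIG2 (right), each in CPM per kilobase of exon and on a log axis, in every library; black lines are means of 3. The mean SREBF ratio is 0.593 in 2D and 1.04 in 3D in HT29 and 2.06 and 1.31 in HCT116, and the mean INSIG ratio of LS513 is 9.09 and 26.7.

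SCAP (ENSG00000114650, chromosome 3, 47413694 to 47477126), the escort of both precursors, was the steadiest member, with a highest library 1.71 times the lowest. HT29 had 98.9, 95.4 and 93.8 CPM in 2D and 113, 107 and 116 CPM in 3D. These did not overlap, and the log2 fold change was 0.22 ± 0.08 (adjusted p = 0.025). The call was lost without the third 2D library (adjusted p = 0.051) and with all genes of at least 1 count in the fit (adjusted p = 0.097). In LS513 the change was 0.01 ± 0.08 (adjusted p = 0.98), in HCT116 it was -0.10 ± 0.08 (adjusted p = 0.36) and in LS174T it was -0.10 ± 0.08 (adjusted p = 0.38). HCT116 had 104, 97.0 and 99.2 CPM in 2D against 91.5, 93.8 and 95.0 CPM in 3D, which did not overlap although the test was not passed. SCAP, INSIG1, INSIG2 and MYLIP share no exonic bases with another gene in GENCODE 29, and the antisense genes that overlap SREBF2 and STARD4 had at most 8 counts in a library.

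INSIG1 (ENSG00000186480, chromosome 7, 155297776 to 155310235), the inducible retention factor, had the largest change of the members. In LS513 its level was 121, 166 and 233 CPM in 2D and 1106, 979 and 970 CPM in 3D. All 3D libraries lay far above the 2D libraries, and the fold change was 5.88 (log2 2.56 ± 0.18, adjusted p = 1.7e-09), and 338 of the 19387 tested genes had a higher fold change in this line. LS174T had 165, 231 and 223 CPM against 504, 414 and 593 CPM, a change of 1.29 ± 0.18 (adjusted p = 1.9e-05). HCT116 had 67.9, 84.9 and 58.2 CPM against 132, 127 and 132 CPM, a change of 0.89 ± 0.18 (adjusted p = 0.00061). In HT29 the libraries were at 119, 121 and 134 CPM in 2D and at 191, 168 and 192 CPM in 3D, with a change of 0.56 ± 0.18 (adjusted p = 0.014). Again no 3D library overlapped the 2D libraries of its line. Within 2D, the libraries of LS513 were the most spread, from 121 to 233 CPM.

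INSIG2 (ENSG00000125629, chromosome 2, 118088452 to 118110997), a paralog that is not counted among the classical SREBP targets, rose in the lines other than HT29, by 2.01-fold in LS513, 2.26-fold in HCT116 and 2.29-fold in LS174T. LS174T had 19.3, 19.1 and 18.4 CPM in 2D and 43.9, 32.0 and 53.6 CPM in 3D. All 3D libraries were higher, but they varied among themselves, and the log2 fold change was 1.19 ± 0.14 (adjusted p = 1.9e-06). Without the second 3D library, which stood apart, it was 1.37 (adjusted p = 1.1e-08). HCT116 went from 11.5, 11.4 and 10.1 CPM to 27.0, 26.3 and 21.6 CPM, a change of 1.18 ± 0.14 (adjusted p = 1.5e-06). LS513 went from 20.1, 20.7 and 20.8 CPM to 43.5, 37.8 and 42.5 CPM, a change of 1.01 ± 0.14 (adjusted p = 9.6e-06). HT29, which had the most INSIG2 in 2D, had 30.0, 30.6 and 35.1 CPM against 38.2, 31.4 and 37.5 CPM. There the libraries overlapped and the change was 0.16 ± 0.13 (adjusted p = 0.35).

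Per kilobase, INSIG1 exceeded INSIG2 in every library, by 4.12 times in the lowest and by 28.0 times in the highest. The mean ratio was 9.09 ± 2.81 (SD, n = 3) in LS513 in 2D and 26.7 ± 1.8 in 3D, with no overlap. HT29 was at 4.23 ± 0.097 and 5.57 ± 0.19, also with no overlap. In HCT116 (6.89 ± 1.04 and 5.71 ± 0.77) and LS174T (11.8 ± 2.2 and 12.8 ± 1.0) the libraries of the growth conditions overlapped. In LS174T the log2 changes of the paralogs were 1.29 for INSIG1 and 1.19 for INSIG2, whereas in LS513 they were 2.56 and 1.01.

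STARD4 (ENSG00000164211, chromosome 5, 111496033 to 111512590), the sterol carrier, rose in LS513 and HCT116. In LS513 it had 39.9, 44.8 and 48.1 CPM in 2D and 83.0, 65.2 and 90.9 CPM in 3D, with no overlap and a log2 fold change of 0.85 ± 0.19 (adjusted p = 0.0021). HCT116 had 23.3, 34.4 and 22.8 CPM against 35.2, 37.8 and 42.7 CPM, a change of 0.52 ± 0.19 (adjusted p = 0.043). The second 2D library of HCT116 almost reached the lowest 3D library, and leaving out any other library of the line ended this call (adjusted p of 0.060 to 0.18), as did leaving out any of 12 libraries of the other lines (0.050 to 0.059). LS174T had 35.8, 41.3 and 42.2 CPM against 53.1, 37.3 and 72.3 CPM, a change of 0.45 ± 0.19 (adjusted p = 0.091). The 3D library at 37.3 CPM is the one that stood apart, and without it the change was 0.66 (adjusted p = 0.015). In HT29, STARD4 had 25.1, 30.0 and 35.1 CPM against 23.0, 22.1 and 28.0 CPM, which overlapped, with a change of -0.30 ± 0.19 (adjusted p = 0.22).

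MYLIP (ENSG00000007944, chromosome 6, 16129125 to 16148248), the ligase that lowers sterol uptake, was the member with the fewest counts and the one that fell in LS513. There it had 15.3, 14.7 and 12.9 CPM in 2D and 7.29, 9.20 and 9.11 CPM in 3D. Every 3D library was lower, and the log2 fold change was -0.74 ± 0.17 (adjusted p = 0.0025). HT29 had 16.2, 13.0 and 14.4 CPM against 18.9, 20.7 and 16.6 CPM, which did not overlap, with a change of 0.37 ± 0.17 (adjusted p = 0.080). This value was 0.41 when the second 3D library of LS174T was left out of the common fit (adjusted p = 0.011), and it also passed without the first 3D library of HCT116 (adjusted p = 0.0497) and without the first 2D library or replicate 4 of 3D of HT29 itself (adjusted p of 0.0425 and 0.0449). In HCT116 the levels were 10.3, 9.63 and 9.85 CPM against 11.4, 8.99 and 8.56 CPM, and the change was -0.04 ± 0.17 (adjusted p = 0.92). LS174T had 9.06, 9.10 and 10.1 CPM against 10.5, 5.87 and 10.5 CPM, a change of -0.07 ± 0.17 (adjusted p = 0.82). Without the second 3D library of LS174T, the low one, this value turned to 0.16 (adjusted p = 0.52).

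**Figure D3:**
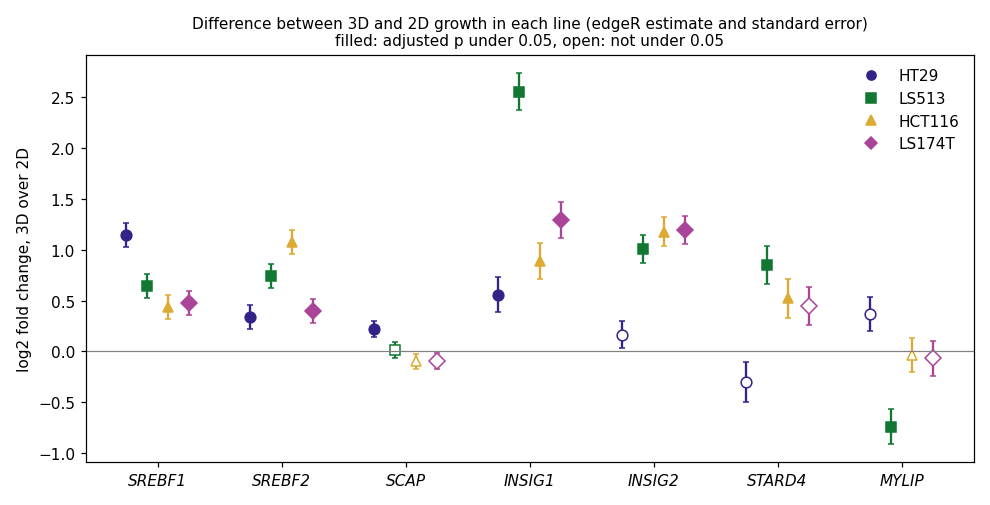
Log2 fold change of 3D over 2D (edgeR estimate, n = 3 per group) of each gene in each line. Bars are ± 1 SE, derived from the F value of the model over all 24 libraries. They do not show the spread of the libraries of that line alone. Filled symbols passed an adjusted p of 0.05 and open ones did not. The highest value is INSIG1 in LS513 at 2.56 and the lowest is MYLIP in LS513 at -0.74.

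Whether 3D growth acted on these genes to the same degree in the 4 lines was tested with all lines in 1 model. The interaction of line and growth passed for 6 of the 7 members, where 17.1% of all tested genes passed. The smallest values belonged to INSIG1 (adjusted p = 1.7e-05) and INSIG2 (adjusted p = 0.00082). SREBF2 (adjusted p = 0.0063), SREBF1 (adjusted p = 0.0089), MYLIP (adjusted p = 0.012) and STARD4 (adjusted p = 0.021) passed as well, and SCAP did not (adjusted p = 0.099). SCAP passed without the second 3D library of LS174T, the one that stood apart (adjusted p = 0.0102), and without the third 3D replicate of HT29 (adjusted p = 0.0454). STARD4 no longer passed without any of 6 single libraries, replicate 2 or 3 of HT29 in 2D and replicate 1 or 3 of HT29 or LS513 in 3D (adjusted p of 0.0544 to 0.0911). SREBF2 no longer passed without the second 3D library of HCT116 (adjusted p = 0.0524). HT29 had the highest estimate of the 4 lines for SREBF1 and the lowest for SREBF2, INSIG1, INSIG2 and STARD4. LS513 had the highest for INSIG1 and STARD4 and the lowest for MYLIP, and HCT116 the highest for SREBF2. Which pairs of lines differ was not tested.

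Levels in 2D differed between the lines for all 7 members, as they did for 91.7% of all tested genes. SREBF2 had the widest spread, with a mean of 106 ± 14 CPM (SD, n = 3) in HCT116 and 320 ± 9.3 CPM in LS174T (adjusted p = 4.1e-11 for any difference between the lines). HT29 and LS513 lay between, and neighbours from HT29 upwards overlapped. For INSIG1 the order was HCT116 at 70.3 ± 13.5 CPM, HT29 at 125 ± 7.9 CPM, LS513 at 173 ± 56 CPM and LS174T at 206 ± 36 CPM, where HCT116 alone was apart from its neighbour. INSIG2 was highest in HT29 at 31.9 ± 2.8 CPM and lowest in HCT116 at 11.0 ± 0.76 CPM, and no neighbours overlapped. SREBF1 ran from HT29 at 179 ± 22 CPM to LS174T at 313 ± 6.4 CPM, with HT29 apart from the next line. SCAP ran from 96.0 ± 2.6 CPM in HT29 to 148 ± 2.5 CPM in LS513, STARD4 from 26.9 ± 6.6 CPM in HCT116 to 44.3 ± 4.1 CPM in LS513, and MYLIP from 9.42 ± 0.59 CPM in LS174T to 14.5 ± 1.6 CPM in HT29.

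In 3D the order of the means changed for several members, but levels between lines in 3D were not tested. INSIG1 spread from 130 ± 2.6 CPM in HCT116 through HT29 (183 ± 14 CPM) and LS174T (504 ± 90 CPM) to LS513 (1018 ± 76 CPM), with no overlap between neighbours. INSIG2 in contrast drew together, and HT29, LS513 and LS174T overlapped at means of 35.7 to 43.2 CPM while HCT116 stayed lowest at 25.0 ± 2.9 CPM. For MYLIP, HT29 was apart at 18.7 ± 2.1 CPM and the other lines overlapped at means of 8.53 to 9.66 CPM. HT29 was the lowest line for STARD4 at 24.3 ± 3.2 CPM. HCT116 remained lowest for SREBF2 at 223 ± 32 CPM.

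The rest of the pathway was read from lists written by hand, and gives the setting in which the members moved. These lists were made with earlier results of these data known. Of 20 cholesterol synthesis enzymes, 10 were higher in 3D in HT29, 18 in each of LS513 and HCT116, and 19 in LS174T. None was lower in any line. The shares of all tested genes that were higher were 21.1%, 13.7%, 16.8% and 13.1% in HT29, LS513, HCT116 and LS174T. The median log2 fold changes of the 20 enzymes were 0.35, 1.28, 0.64 and 0.73 in that order of lines. HMGCS1, which makes HMG-CoA, changed by 0.42 in HT29 (adjusted p = 0.038) and by 2.04, 0.96 and 1.15 in LS513, HCT116 and LS174T, which is the order of lines seen for INSIG1. Its call in HT29 was lost without replicate 1 or 2 of 2D and without replicate 1 or 4 of 3D (adjusted p of 0.0636 to 0.105). SQLE, the squalene epoxidase, was at -0.23 ± 0.15 in HT29 (adjusted p = 0.24), with rises of 1.15 in LS513, 0.41 in HCT116 (adjusted p = 0.046) and 0.63 in LS174T. The call of SQLE in HCT116 was lost without any of 5 libraries of the line, all but the second of 2D, and without any of 12 others (adjusted p of 0.0527 to 0.184). FDPS, the gene of this list with the smallest p for the mean effect, rose by 0.57, 1.82, 0.80 and 1.33.

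For sterol uptake and transport, 18 of 19 listed genes were tested. In HT29 7 were higher and 2 lower, and in LS513, HCT116 and LS174T 7, 10 and 7 were higher and none lower, beside the 21.1%, 13.7%, 16.8% and 13.1% of all genes that were higher in the 4 lines. NPC1, which exports cholesterol from lysosomes, fell by 0.60 on the log2 scale in HT29 (adjusted p = 0.00016), rose by 0.88 in LS513 and 0.44 in HCT116, and was at 0.08 ± 0.11 in LS174T (adjusted p = 0.64). Without the third 2D library of HCT116 its adjusted p there was 0.0511.

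Among genes that process SREBP or turn over its partners, HT29 had the most calls. Of 15 tested, 8 were lower in HT29, 3 in LS513 and 2 in each of HCT116 and LS174T, while 1 was higher in LS513 and 1 in HCT116. Of all genes tested, the share lower in 3D was 19.6% for HT29, 9.9% for LS513, 12.3% for HCT116 and 9.15% for LS174T, so that the share in HCT116 and LS174T was near that of all genes. MBTPS1, the site-1 protease, was higher in HCT116 (0.23 ± 0.08, adjusted p = 0.028) and was within 0.11 of its 2D level in the other lines. The call in HCT116 was lost in 11 of the 24 fits that each left out 1 library (adjusted p of 0.057 to 0.187). MBTPS2, the site-2 protease, was lower in HT29 (-0.41 ± 0.15, adjusted p = 0.035) and at -0.22 to -0.28 in the others, which did not pass. The call in HT29 was lost without any 1 of its own 6 libraries and without any of 5 others (adjusted p of 0.0503 to 0.183). ERLIN1, a membrane protein that restricts SREBP activation, was lower in HT29, LS513 and HCT116, with changes of -0.46, -0.39 and -0.30, and was at -0.26 ± 0.10 in LS174T (adjusted p = 0.052). Its call in HCT116 was lost without any of 4 libraries of that line, the first or second of either growth condition (adjusted p of 0.0581 to 0.0923).

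Fatty acid synthesis, the usual range of SREBP-1, was mixed. Of 12 tested enzymes 2 were higher and 4 lower in HT29, the line with the largest rise of SREBF1. The counts were 6 and 1 in LS513, 4 and 1 in HCT116, and 4 and 1 in LS174T, against the same shares of all genes, and in HT29 the higher calls were under the 21.1% of all genes. With DESeq2 and several other settings given below, 2 rather than 4 of these enzymes were lower in HT29. A link to the rise of SREBF1 was not tested. Counts were summed over all transcripts of SREBF1, and release of the active part of SREBP-1 was not measured. FASN was at -0.06 ± 0.11 in HT29 (adjusted p = 0.73) and rose by 0.68, 0.39 and 0.41 in the others. The FASN call in HCT116 was lost without replicate 3 of 2D (adjusted p = 0.0823) or replicate 2 of 3D (adjusted p = 0.145), and that in LS174T without replicate 1 of 2D (adjusted p = 0.0521) or replicate 2 of 3D, the library that stood apart (adjusted p = 0.0565). The desaturase SCD rose in all 4 lines, by 0.80, 1.67, 0.90 and 1.45. ACSS2, which makes acetyl-CoA from acetate, rose by 1.39, 2.83, 0.95 and 1.35. Of 8 tested LXR receptors and targets, 4 were higher in HT29, 1 in each of LS513 and HCT116, and 2 in LS174T, with none lower. The single calls in LS513 and HCT116 are no larger a share than the 13.7% and 16.8% of all genes higher there. NR1H3 (LXR alpha) rose by 0.88, 0.78 and 0.80 in HT29, LS513 and LS174T and was at 0.20 ± 0.16 in HCT116 (adjusted p = 0.37). The exporter ABCA1 rose in HT29, from 3.75 to 6.41 CPM in 2D to 11.6 to 16.0 CPM in 3D, and stayed at or under 0.46 CPM in the other lines.

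**Figure D4:**
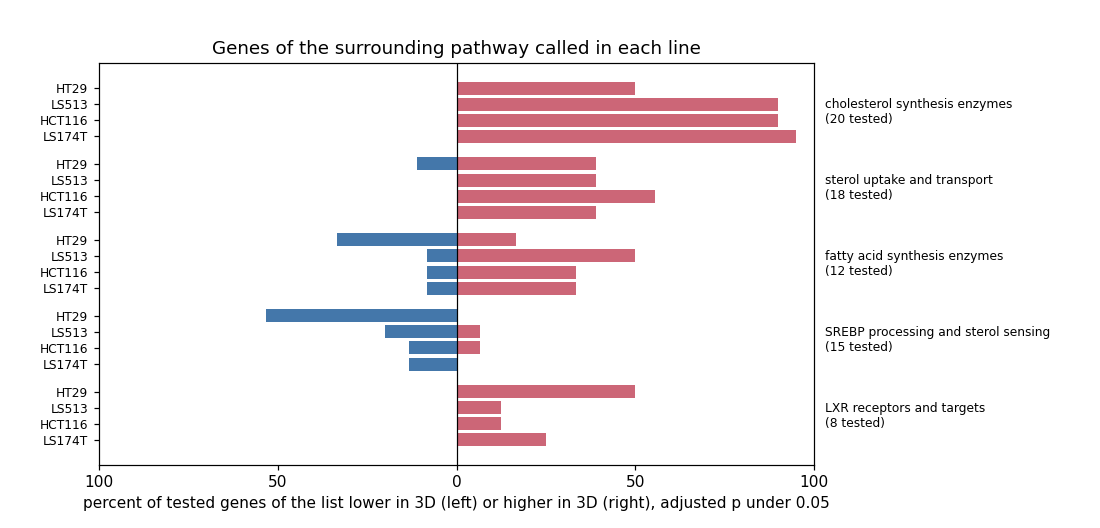
Percent of the tested genes of each hand-written list that were higher (right, red) or lower (left, blue) in 3D in each line (adjusted p under 0.05). The cholesterol synthesis enzymes reach 19 of 20 higher in LS174T, and the SREBP processing genes reach 8 of 15 lower in HT29.

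Each member was also set beside all 10334 genes with a mean of at least 10 CPM, by Pearson's r of log2 CPM over the 24 libraries after the mean of each line was taken off. All these points share library, depth and the growth contrast, so the values describe likeness of pattern only. INSIG1 was most like HMGCS1 (r = 0.990) and IDI1 (r = 0.980), both enzymes of cholesterol synthesis. STARD4 was most like SC5D (r = 0.885) and SQLE (r = 0.883), which also belong to that pathway. INSIG2 instead lay closest to KDM3A (r = 0.955), a histone demethylase, and FUT11 (r = 0.946), and SREBF2 was close to P4HA1 (r = 0.946), a prolyl hydroxylase of collagen. SREBF1 was most like HID1 (r = 0.978) and RAB40B (r = 0.977). SCAP and MYLIP had no gene as close, with r = 0.789 for CYB561A3 and r = 0.837 for PELI1 as their highest values. Among the members, SREBF2 and INSIG2 were the most alike (r = 0.892), and SCAP and STARD4 were the most opposed (r = -0.563).

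**Figure D5:**
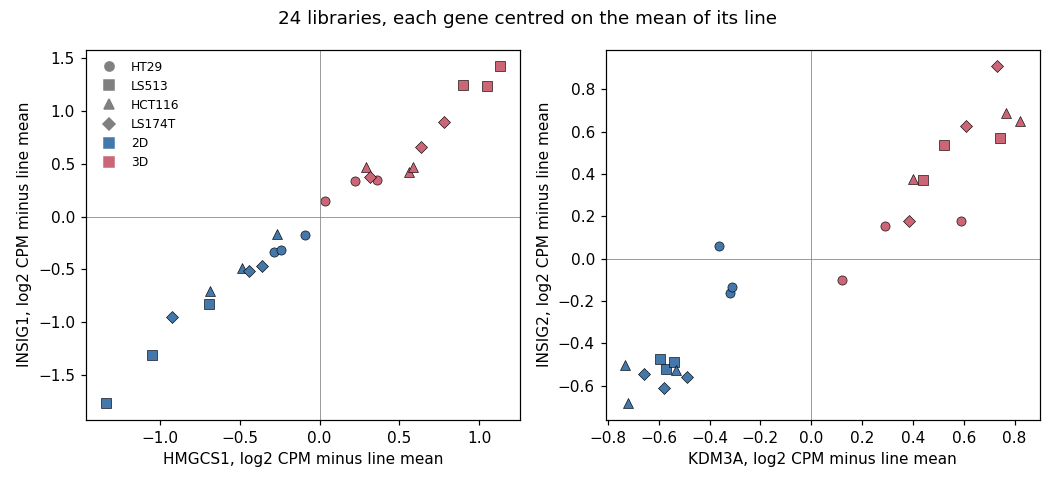
INSIG1 against HMGCS1 (left) and INSIG2 against KDM3A (right) in 24 libraries, each as log2 CPM minus the mean of its line; colour gives the growth condition and shape the line. The left points lie along a line (r = 0.990), and on the right (r = 0.955) the 2D and 3D libraries of HT29 lie closer together on the INSIG2 axis than those of the other lines.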

How the data were processed

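RNA sequencing of 24 libraries (polyA-selected, TruSeq Stranded, single reads) was used. The authors deposited 1 set of gene counts per technical replicate, not normalized. According to the labels and the study's methods, reads were trimmed with Trim Galore 0.4.1, aligned with STAR, kept if mapped once and counted with HTSeq 0.5.3. The labels name hg19 and the methods the Ensembl genome; positions here are from GENCODE 29 on GRCh38, which holds 57980 of the 58243 identifiers, and promoters from RefSeq (GRCh38.p14). The 8 technical replicates of a library (7 for 1 library of HT29 in 3D, the other not analysed here) were summed. A count of 3, the floor of detection, is 0.0875 to 0.160 CPM, and covers counting error only.

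The summed counts went into edgeR 4.0.16 (R 4.3.3), with filterByExpr (19387 genes), TMM and the quasi-likelihood model in its robust form over 24 libraries and 8 groups, and Benjamini-Hochberg adjustment over all tested genes. The study's comparisons were fitted in DESeq2, which was an alternative here (DESeq2 1.42.0). Further alternatives were DESeq2 size factors, all genes with at least 1 count, only the 6 libraries of a line, a replicate block, technical replicate d left out, and each library left out in turn. The SE of a fold change was the absolute log2 fold change divided by the square root of the F value. Likeness used log2(CPM + 0.5). Equal replicate numbers did not mark samples that deviate together, so no pairing was used.

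The members and lists were chosen with earlier results of these data known. Besides the members, named genes are HMGCS1, SQLE, FASN, SCD, MBTPS1, MBTPS2, ABCA1 and NPC1, the gene of each list with the smallest p for the mean 3D effect, the 2 genes most like each member, and overlapping genes. Some genes named by this rule are not reported here.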

Additional observations from a re-analysis of the deposited data

Results flagged for a closer look

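By the interaction test of edgeR with Benjamini-Hochberg adjustment, the effect of 3D growth differed between the 4 lines for 6 of the 7 members. Of all tested genes, 17.1% passed this test. With the replicate block, SREBF1 (adjusted p = 0.254), STARD4 (adjusted p = 0.070) and MYLIP (adjusted p = 0.0614) did not pass. STARD4 and SREBF2 also did not pass without certain single libraries, as given above. INSIG1 (adjusted p = 1.7e-05) had log2 fold changes of 0.56 in HT29 and 2.56 in LS513, with HCT116 and LS174T between. INSIG2 (adjusted p = 0.00082) had 0.16 in HT29 and 1.01 to 1.19 in the other lines. SREBF2 (adjusted p = 0.0063) had 0.34 in HT29 and 1.07 in HCT116, and SREBF1 (adjusted p = 0.0089) had 1.15 in HT29 and 0.43 in HCT116, so that these genes had their extremes in the same lines with the order turned around. MYLIP (adjusted p = 0.012) had -0.74 in LS513 and 0.37 in HT29, and STARD4 (adjusted p = 0.021) had 0.85 in LS513 and -0.30 in HT29.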

How the results depend on the processing

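Over 168 comparisons of a member's fold change within a line with an alternative other than leaving out a library, 160 kept direction and call. The 7 members called in 2D levels between lines, the 5 in the mean effect and the 6 in LS513 were called under every alternative run. With the replicate block, 1 member in place of 4 was called in HT29 (SREBF1), and 3 in place of 6 for the growth effect between lines, where SREBF1 (adjusted p = 0.254), STARD4 (adjusted p = 0.070) and MYLIP (adjusted p = 0.0614) were lost. Not every sample deviated most like the one with its own number, so the block rests on a shared number only. It was not run for levels between lines, as numbers are nested in lines. In HT29, which shares 2 numbers between growth conditions, it gave INSIG1 an adjusted p of 0.12. SCAP passed for the growth effect between lines with DESeq2 (adjusted p = 0.00736), and STARD4 in LS174T with all genes of at least 1 count (adjusted p = 0.0064). MYLIP in HT29 passed with DESeq2 (adjusted p = 0.048) and with only the 6 libraries of the line (adjusted p = 0.025). Leaving out a library gave 3 to 5 members called in HCT116 and 3 to 5 in HT29, and 5 to 7 for the growth effect between lines. Among the lists, HT29 had 6 in place of 10 cholesterol enzymes and 4 in place of 7 uptake genes higher with the block, 2 in place of 4 fatty acid enzymes lower with the block, DESeq2, its size factors or all genes, and LS174T had 4 in place of 2 processing genes lower with DESeq2. The other list counts that moved by over 1.5 times lay between 0 and 2 genes.

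Values near 0 changed sign. SCAP in LS513 was -0.0013 with only the 6 libraries of the line and -0.027 to 0.040 over the libraries left out, and its mean effect -0.00554 to 0.026. MYLIP ranged over -0.195 to 0.018 in HCT116 and -0.199 to 0.165 in LS174T, and FASN in HT29 over -0.0808 to 0.043. ABCA1, near the floor, was -0.17 in LS513 without technical replicate d, and ranged over -0.430 to 0.72 in LS513 and -0.31 to 0.13 in HCT116. The causes were not tested. For ABCA1 in LS513 and LS174T, depth allows no statement.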
